A study of Homo sapiens with 17 samples.

Results

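Described here are 10 receptor genes of the tumour necrosis factor (TNF) receptor family other than the receptors of TRAIL: FAS, TNFRSF1A, TNFRSF1B, TNFRSF9, TNFRSF11A, TNFRSF12A, TNFRSF21, LTBR, CD40 and NGFR. They were chosen with earlier results of these data known and picked out by symbol. All 10 were found once among the 58870 entries of the deposited count table. All 10 also passed the filter on low counts, which left 15365 genes for testing. Genes were followed in MDA-MB-231, an established and widely used human line of triple-negative breast carcinoma (one without oestrogen receptor, progesterone receptor or HER2 amplification), which the labels place in the mesenchymal basal B class. Cells grown in RPMI medium with 10% fetal bovine serum received TRAIL, a death ligand of the TNF family, at 45 nM, a dose that the submitters set low so that RNA would come from living cells. RNA was taken at 0, 1, 3, 6, 12 and 24 h. There were 3 libraries per time except at 1 h, of which 2 were analysed here and triplicates are named in the labels. Every library, 0 h included, carries the treatment label "TRAIL treated", and 0 of the libraries analysed here were untreated at a later time, so the time with TRAIL and the time in culture cannot be told apart. All libraries come from 1 cell line, and the labels do not say whether replicates were separate cultures, so p-values measure the spread between these libraries, which may be technical.

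TNF receptors are cell-surface proteins, most of which bind trimeric ligands of the TNF family. One class carries a death domain in its cytoplasmic tail, through which adaptors such as FADD and TRADD can reach caspase-8 or the kinase RIPK1; FAS, TNFRSF1A, TNFRSF21 and NGFR belong to it. The others bind TRAF proteins directly and are known for signalling to NF-kappaB, through the canonical route, the non-canonical route (which runs through the kinase NIK and processing of NFKB2) or both; TNFRSF1B, TNFRSF9, TNFRSF11A, TNFRSF12A, LTBR and CD40 belong to this class. In carcinoma cells these receptors are known to set how a cell answers ligands from immune and stromal neighbours.

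Promoter sequence is shown for 4 members whose RNA moved in ways described further on: TNFRSF9, which had the largest rise at 24 h, FAS, which was lowest at 3 h and highest at 6 h, and the pair TNFRSF1A and TNFRSF1B, which both fell at 3 h. Each run is the 250 bases before a RefSeq transcript start (GRCh38.p14), written 5′ to 3′ along the gene. Capitals mark matches, on either strand, to an NF-kappaB motif (GGGA and CC with any 4 bases between them) or to the AP-1 motif TGANTCA.
TNFRSF9: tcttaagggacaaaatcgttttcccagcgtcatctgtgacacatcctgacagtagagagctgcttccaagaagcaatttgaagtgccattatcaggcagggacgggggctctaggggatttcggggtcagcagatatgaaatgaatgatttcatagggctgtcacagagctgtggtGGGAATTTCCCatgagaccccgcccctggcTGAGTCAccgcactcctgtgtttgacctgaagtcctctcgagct
FAS: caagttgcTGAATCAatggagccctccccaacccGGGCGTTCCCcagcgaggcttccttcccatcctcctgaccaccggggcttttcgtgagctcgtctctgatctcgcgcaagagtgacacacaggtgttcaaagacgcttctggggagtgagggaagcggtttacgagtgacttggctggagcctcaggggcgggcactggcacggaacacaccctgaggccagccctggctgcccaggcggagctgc
TNFRSF1A: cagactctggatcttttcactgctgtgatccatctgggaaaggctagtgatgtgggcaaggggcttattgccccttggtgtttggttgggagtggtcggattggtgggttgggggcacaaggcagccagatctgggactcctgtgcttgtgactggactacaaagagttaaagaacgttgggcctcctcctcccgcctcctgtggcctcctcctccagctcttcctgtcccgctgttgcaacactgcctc
TNFRSF1B: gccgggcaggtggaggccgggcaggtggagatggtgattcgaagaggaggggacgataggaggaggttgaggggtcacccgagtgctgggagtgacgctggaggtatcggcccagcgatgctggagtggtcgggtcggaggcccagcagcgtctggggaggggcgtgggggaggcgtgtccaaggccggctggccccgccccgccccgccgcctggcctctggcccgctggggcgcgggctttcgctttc

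The TNFRSF9 window is chr1:7940840-7941089 on the minus strand, and its RefSeq start lies inside the longer GENCODE gene. The FAS window, the first of 3 that RefSeq gives, is chr10:88990548-88990797 on the plus strand. Most of it lies inside the longer GENCODE gene, which begins at 88990582. The windows of TNFRSF1A and TNFRSF1B are chr12:6342077-6342326 on the minus strand and chr1:12166741-12166990 on the plus strand. TNFRSF9 had 2 overlapping matches to the NF-kappaB motif, beginning at -74 and -73, and an AP-1 match at -44, counted from -1 as the last base before the start. In the FAS window an NF-kappaB match began at -216 and an AP-1 match at -242; the other 2 FAS windows held neither. RefSeq windows were matched for 7 of the 10 members, and of those not printed, TNFRSF11A and TNFRSF21 each held 1 NF-kappaB match, at -180 and -62. These letters did not occur in the windows of TNFRSF1A, TNFRSF1B and LTBR, the last of which lies inside the longer GENCODE gene. No match to one motif overlapped a match to the other in these windows. Among all 35116 RefSeq windows of this length, 22.6% held the NF-kappaB letters and 6.57% the AP-1 letters, and a match describes the sequence only.

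Total counts ran from 13731497 to 19234939 per library. Replicates 2 and 3 differed least at 6 h and at 24 h (chi-square of 1.57 and 1.68 per gene, against 3.6 to 12.8 for the other replicate pairs), still by more than sampling noise, and were kept apart. The share of mitochondrial counts was 5.53% to 8.37% at 0 h, 7.65% and 9.71% at 1 h and 7.99% to 8.97% at 3 h. It was 3.97% to 5.45% at 6 h, 5.01% to 6.8% at 12 h and 3.66% to 4.14% at 24 h. Of the mesenchymal markers, VIM was high (37967 to 63103 counts), as were CD44, AXL, CAV1 and MSN, and ZEB1 had 411 to 1220 counts, but SPARC had only 4 to 17. Of the luminal or epithelial markers, ESR1 and PGR had at most 2 counts and CDH1 4 to 16. KRT19 had 4502 to 8261, ERBB2 786 to 1221, EPCAM 204 to 346 and GATA3 105 to 213. In these bulk libraries, fewer cells that carry a transcript and less of it per cell cannot be told apart.

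By length-scaled level the family fell into an abundant and a scarce group of 5 genes each. Levels are in CPM, counts relative to the scaled library total, and only levels divided by transcript length are compared between genes. At 0 h, TNFRSF12A was highest at 184 ± 12.6 CPM per kilobase of longest transcript (SD, n = 3). TNFRSF21 followed at 66.3 ± 1.54, TNFRSF1A at 49 ± 2.7, LTBR at 39.5 ± 2.83 and CD40 at 20 ± 1.28. The scarce genes were TNFRSF1B (3.21 ± 0.242), FAS (1.99 ± 0.0868), TNFRSF11A (1.02 ± 0.0699), NGFR (0.625 ± 0.146) and TNFRSF9 (0.264 ± 0.094). The order at 0 h was the same with the merged exons as length, although LTBR (14.6) and CD40 (13.7) then lay close together.

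**Figure D1:**
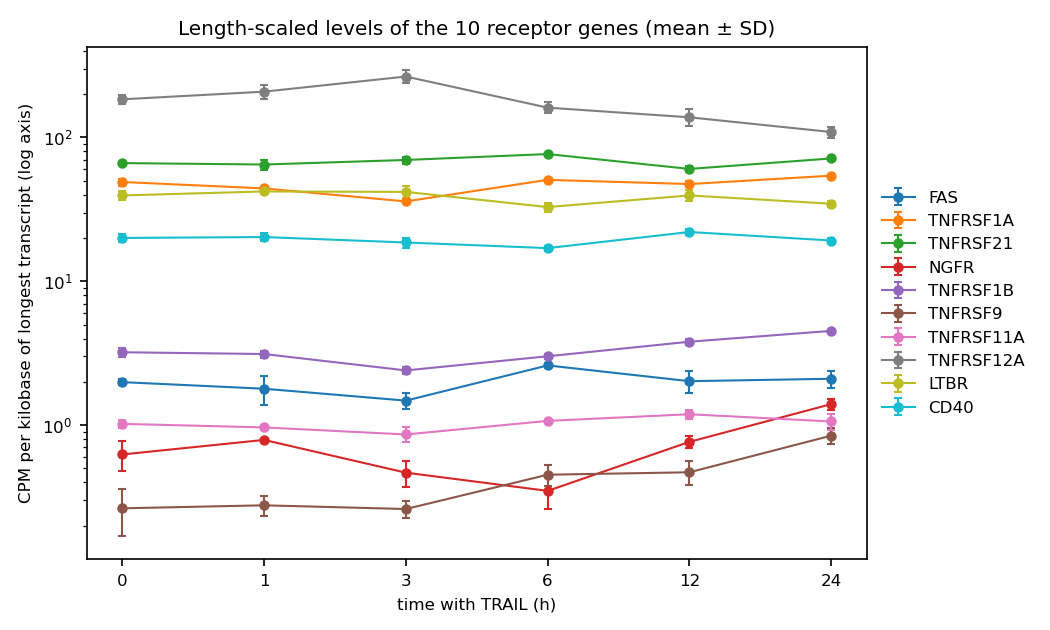
Length-scaled levels (CPM per kilobase of longest transcript, log axis) of the 10 receptor genes against time with TRAIL in hours, as mean ± SD over 3 libraries (2 at 1 h). TNFRSF12A is the top line at every time, and TNFRSF9 and NGFR, the lowest lines at 0 h, end at 0.845 and 1.4, on either side of TNFRSF11A (1.06), at 24 h.

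Of the RNA of the 10 genes summed per kilobase, TNFRSF12A made up 50.2 ± 1.33% at 0 h (SD, n = 3), 60.6 ± 2.4% at 3 h and 36.6 ± 1.85% at 24 h. TNFRSF1A moved the other way, with 13.4 ± 1.09%, 8.25 ± 0.547% and 18.1 ± 0.328%. NGFR never exceeded 0.511% in any library and TNFRSF9 never exceeded 0.32%, so the receptors with the largest relative changes were a very small part of this RNA. A share of a sum falls for one gene where another rises, and these shares carry no test.

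A gene is called changed at a Benjamini-Hochberg adjusted p below 0.05 over all genes tested (edgeR quasi-likelihood test), and every later time was compared with 0 h and with the time before it. At 1 h, 0 of the 10 genes were called, where 0.312% of all genes were; 1 gene, TNFRSF1A, had an unadjusted p below 0.05 (0.0202), and DESeq2 also called 0. At 3 h, 3 were called (17.7% of all genes): TNFRSF12A rose, and TNFRSF1A and TNFRSF1B fell, where 9.04% of all genes rose and 8.71% fell. At 6 h, 5 were called (30.1% of all genes): TNFRSF9 and TNFRSF21 rose, and LTBR, CD40 and NGFR fell. At 12 h, 2 were called (12.4% of all genes), with TNFRSF9 higher and TNFRSF12A lower. At 24 h, 5 were called (35.1% of all genes): TNFRSF1A, TNFRSF1B, TNFRSF9 and NGFR rose, and TNFRSF12A fell. These 5 comparisons share the 0 h libraries.

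From 1 h to 3 h, 2 members were called, TNFRSF1A and TNFRSF1B, both lower (5.73% of all genes called, 3.17% higher and 2.56% lower). The step from 3 h to 6 h called most members, 7 of 10, against 43.2% of all genes (22.9% higher, 20.3% lower): FAS, TNFRSF1A, TNFRSF1B, TNFRSF9 and TNFRSF11A rose, and TNFRSF12A and LTBR fell. From 6 h to 12 h, 5 were called (20.6% of all genes, 8.7% higher and 11.9% lower), TNFRSF1B, LTBR, CD40 and NGFR higher and TNFRSF21 lower. From 12 h to 24 h, 5 were called (12% of all genes, 6.42% higher and 5.6% lower), TNFRSF1A, TNFRSF9, TNFRSF21 and NGFR higher and TNFRSF12A lower. Over all 6 times together, 10 of 10 differed (F-test), against 64.2% of all genes. With 10 genes, nothing particular to these receptors is read from such counts. Medians over the 10 genes against 0 h were -0.0071, -0.18, -0.021, 0.082 and 0.095 on the log2 scale at 1, 3, 6, 12 and 24 h, where those of all genes were -0.0041, -0.0041, -0.022, -0.0032 and -0.0018.

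**Figure D2:**
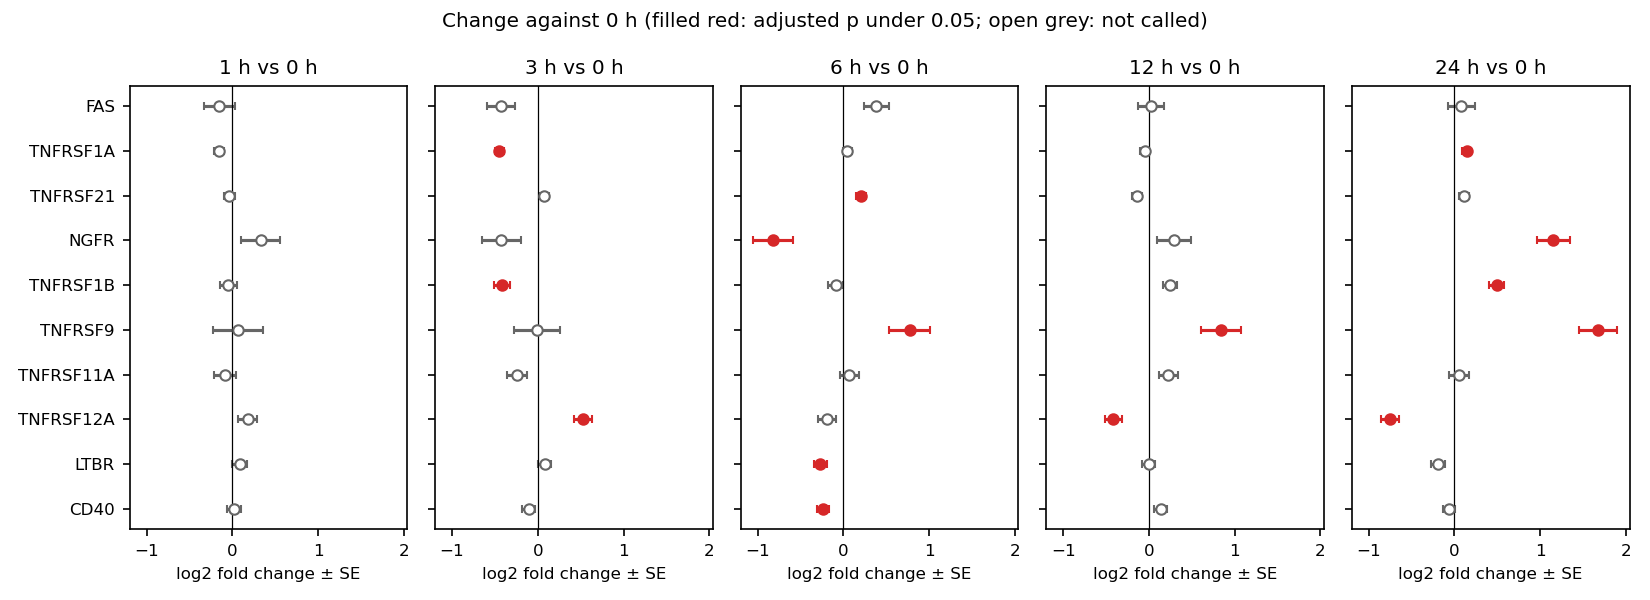
Log2 fold change ± SE of each of the 10 receptor genes against 0 h, in 1 panel per later time; filled red points passed the adjusted p threshold of 0.05 and open grey points did not. The widest departures from 0 are those of TNFRSF9 and NGFR at 24 h (1.67 and 1.15).

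Single libraries decided some of these counts. Without replicate 1 of 0 h, 1 member was called at 6 h and 0 at 12 h. Without replicate 2 of 6 h or 3, 2 were called at 6 h. The count at 12 h was 1 without replicate 2 of 0 h and 0 without replicate 2 of 12 h. From 1 h to 3 h it was 0 without replicate 2 of 1 h and 1 without replicate 1 of 1 h, replicate 1 of 3 h or replicate 2 of 3 h. From 12 h to 24 h it was 1 without replicate 1 of 12 h or replicate 2 of 24 h and 2 without replicate 3 of 24 h. The counts at 3 h against 0 h stayed at 3 with any library left out, and those at 24 h ran from 4 to 6.

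Among the receptors with a death domain, TNFRSF1A was lowest at 3 h and highest at 24 h. TNFRSF1A (TNFR1, ENSG00000067182, chr12:6328757-6342114, minus strand; GRCh38 throughout) is the broadly expressed receptor of TNF. Its levels were 103.3, 115.3 and 108.3 CPM (0 h), 97.04 and 99.26 (1 h), 78.53, 80.53 and 80.3 (3 h), 114.3, 110.9 and 112.7 (6 h), 99.89, 108.7 and 107.8 (12 h), and 122.7, 119.7 and 118.8 (24 h). All 3 libraries at 3 h lay below every other library, and all 3 at 24 h above every other library. At 3 h TNFRSF1A fell by 0.45 on the log2 scale (SE 0.0542, adjusted p = 1.08e-05), a level 1.37-fold lower than at 0 h. Between 1 h and 3 h it fell by 0.30 (adjusted p = 0.00483), and between 3 h and 6 h it rose by 0.50 (SE 0.0541, adjusted p = 4.19e-06). From 12 h to 24 h the rise was 0.19 (adjusted p = 0.0252), and at 24 h against 0 h it was 0.14 (SE 0.0529, adjusted p = 0.0404), a 1.1-fold difference.

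The falls at 3 h against 0 h and the return at 6 h held in all 28 alternatives for TNFRSF1A, but its small late rise did not. The call at 24 h against 0 h was lost without replicate 1 of 0 h (log2 change 0.11, adjusted p = 0.196) or 3 (0.0911), replicate 1 of 1 h (0.0512), replicate 1 of 3 h (0.0525), replicate 2 of 6 h (0.0507) or 3 (0.0525), or replicate 1 of 24 h (0.086), 2 (0.0842) or 3 (0.0724). It was also lost with no filter (0.187), in a fit of the 2 groups alone (0.115) and with the close pairs averaged (0.112). It was 0.28 (adjusted p = 0.000404) once trends on transcript length and GC content were removed and 0.22 (0.0062) without a composition factor. The rise from 12 h to 24 h was lost without replicate 1 of 12 h (0.16, adjusted p = 0.129) or replicate 2 of 24 h (0.0789) or 3 (0.0692), with no filter (0.0978), in a fit of the 2 groups (0.0635) and with the close pairs averaged (0.0948), and the fall from 1 h to 3 h without replicate 2 of 1 h (-0.28, 0.0592) and in a fit of the 2 groups (0.0645).

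FAS (CD95, ENSG00000026103, chr10:88990582-89015785, plus strand), the receptor of Fas ligand and the classical trigger of apoptosis by cytotoxic lymphocytes, was scarce, with 44 to 126 counts per library. It measured 5.04, 4.92 and 5.35 CPM (0 h), 5.32 and 3.87 (1 h), 3.26, 4.04 and 4.09 (3 h), 6.32, 6.9 and 6.8 (6 h), 4.73, 6.22 and 4.55 (12 h), and 5.86, 5.76 and 4.54 (24 h). Each 6 h library was above every other library of the series, while 3 h overlapped only 1 h. FAS rose by 0.81 on the log2 scale from 3 h to 6 h (SE 0.159, adjusted p = 0.000521), a 1.76-fold difference that held in all 28 alternatives. Against 0 h the changes were -0.43 at 3 h (adjusted p = 0.078) and 0.39 at 6 h (adjusted p = 0.0547), neither past the threshold although the ranges did not overlap. FAS counts were fractional in 14 of 17 libraries, and the gene overlaps ACTA2 on the other strand by 758 bases (35 to 92 counts), so reads could be shared where counting did not use strand.

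TNFRSF21 (DR6, ENSG00000146072, chr6:47231532-47309905, minus strand), a death-domain receptor known from neurons and lymphocytes, was abundant and moved within a narrow range. Its libraries gave 242.8, 232 and 239.7 CPM (0 h), 246.2 and 219.5 (1 h), 247.7, 237.9 and 266 (3 h), 273.7, 274.6 and 278.2 (6 h), 204.8, 218.3 and 227.9 (12 h), and 249.9, 259.5 and 261.1 (24 h). The 6 h libraries were the 3 highest of all, and 2 of the 12 h libraries the lowest. TNFRSF21 rose by 0.21 on the log2 scale at 6 h against 0 h (SE 0.0572, adjusted p = 0.00998), fell by 0.34 from 6 h to 12 h (SE 0.0573, adjusted p = 0.000346) and rose between 12 h and 24 h by 0.24 (adjusted p = 0.011). The last rise was lost without replicate 1 of 12 h (0.21, adjusted p = 0.0693), replicate 2 of 24 h (0.051) or replicate 3 of 24 h (0.0527). With the close 6 h and 24 h pairs averaged, the rise at 6 h was 0.20 (adjusted p = 0.0539) and the last rise 0.23 (0.0647).

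NGFR (p75 neurotrophin receptor, ENSG00000064300, chr17:49495293-49515017, plus strand) binds neurotrophins and their precursors, and it is known as a marker of neural crest-derived cells. With 14 to 80 counts per library, it had the widest span of the 10 genes, with a mean 4-fold higher at 24 h than at 6 h. Levels were 2.61, 2.18 and 1.62 CPM (0 h), 2.66 and 2.73 (1 h), 1.78, 1.79 and 1.22 (3 h), 1.14, 0.929 and 1.51 (6 h), 2.4, 2.56 and 2.89 (12 h), and 4.27, 4.96 and 5.07 (24 h). The 24 h libraries stood above all others, and the 6 h libraries lay below those of 0, 1, 12 and 24 h.

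NGFR rose by 1.15 on the log2 scale at 24 h against 0 h (SE 0.192, adjusted p = 0.000212), which is 2.22-fold. It rose by 1.11 from 6 h to 12 h (SE 0.222, adjusted p = 0.00148) and by 0.86 from 12 h to 24 h (SE 0.185, adjusted p = 0.0062), and these 3 rises held in all 28 alternatives. At 6 h it fell by 0.82 against 0 h (SE 0.231, adjusted p = 0.0116), a call lost without replicate 1 of 0 h (-0.65, adjusted p = 0.0768) or replicate 2 of 6 h (-0.68, 0.0628). Of the Schwann and neural crest markers, S100B had 0 counts in all 17 libraries and SOX10 at most 1, and the summed level of these 2 was 0 to 0.0623 CPM at 0 h and 0 to 0.0667 CPM at 24 h.

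**Figure D3:**
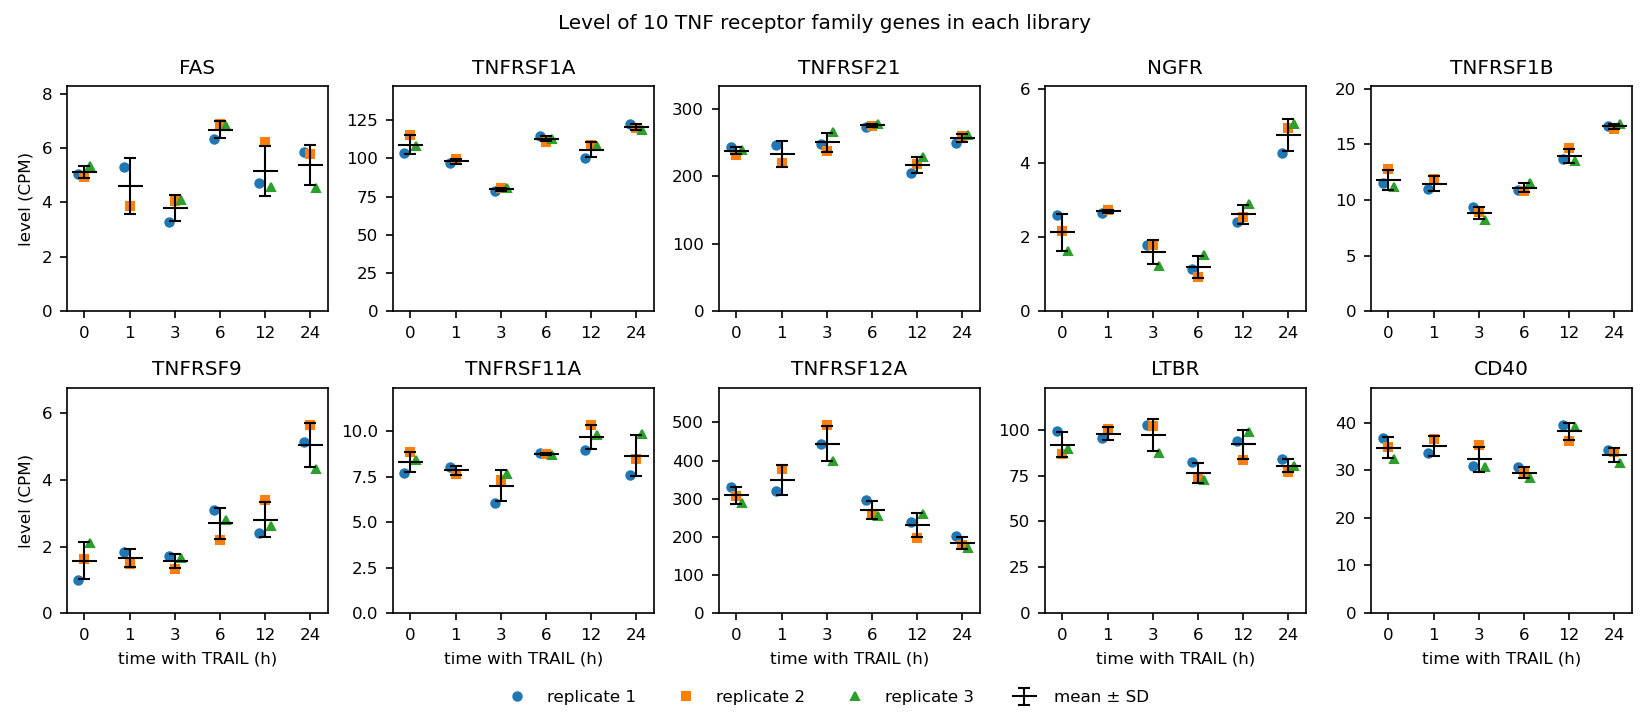
Level in CPM of each receptor gene in every library against time with TRAIL in hours, with marker shape and colour for the replicate number and bars for mean ± SD (n = 3, and 2 at 1 h); each panel has its own linear axis from 0. TNFRSF1A and TNFRSF1B have their lowest points at 3 h, where TNFRSF12A has its highest, and TNFRSF9 and NGFR have their highest points at 24 h.

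Of the receptors that bind TRAFs directly, TNFRSF12A (Fn14, ENSG00000006327, chr16:3018445-3022383, plus strand), the receptor of TWEAK (TNFSF12) and a gene known to be induced by growth factors and injury, rose early and then declined. It measured 329.8, 307.7 and 287.7 CPM (0 h), 320.4 and 377.6 (1 h), 442.6, 492.2 and 398.5 (3 h), 297.7, 259.1 and 253.5 (6 h), 237.6, 197.6 and 259.4 (12 h), and 201.5, 178.5 and 170.9 (24 h). All 3 h libraries were above every other library, and those at 24 h lay below every library of 0, 1, 3 and 6 h, with some overlap with 12 h. TNFRSF12A rose by 0.53 on the log2 scale at 3 h (SE 0.102, adjusted p = 0.00213), which is 1.44-fold. It fell by 0.72 from 3 h to 6 h (SE 0.103, adjusted p = 8.11e-05). Against 0 h it was lower by 0.41 at 12 h (log2 change -0.41, SE 0.103, adjusted p = 0.0143) and by 0.75 at 24 h (log2 change -0.75, SE 0.104, adjusted p = 6.39e-05), when the level was 1.68-fold lower.

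The size of the late fall of TNFRSF12A moved with the processing. TNFRSF12A has the shortest transcript model of the 10 genes (1678 bases for the longest transcript) and the highest GC content (64.2%). With trends on transcript length and GC content removed from each library, its change was -0.47 at 24 h (adjusted p = 4.68e-07), -0.23 at 12 h (0.00232) and -0.43 from 3 h to 6 h (1.65e-06), while at 3 h it was 0.45 (7.18e-07). At 12 h the call was lost without replicate 1 of 0 h (-0.37, adjusted p = 0.0675) or replicate 2 of 12 h (-0.31, 0.0817). The fall of 0.33 from 12 h to 24 h (adjusted p = 0.0441), where the ranges overlapped, was lost without any of 9 libraries: 0 h replicate 2 (0.0555) or 3 (0.052), 3 h replicate 1 (0.0607), 6 h replicate 2 (0.0534) or 3 (0.0502), 12 h replicate 1 (0.151) or 3 (-0.24, 0.169), and 24 h replicate 2 (0.153) or 3 (0.168). It was also lost with the close pairs averaged (0.181). The mitochondrial share, given above, was also higher at 1 h and 3 h than at 24 h, and its part in these changes was not tested.

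TNFRSF1B (TNFR2, ENSG00000028137, chr1:12167003-12209228, plus strand) is the second TNF receptor, with the membrane-bound form of TNF as its main ligand, and it is usually abundant on leukocytes and endothelium. Its levels were 11.51, 12.83 and 11.14 CPM (0 h), 11.01 and 11.93 (1 h), 9.34, 8.93 and 8.25 (3 h), 10.93, 10.81 and 11.55 (6 h), 13.71, 14.7 and 13.55 (12 h), and 16.63, 16.42 and 16.88 (24 h). The 3 h libraries were the lowest of the series, 12 h stood above all earlier times, and 24 h stood above 12 h. TNFRSF1B fell by 0.42 on the log2 scale at 3 h (SE 0.0918, adjusted p = 0.00385). At 24 h it rose by 0.49 against 0 h (SE 0.0835, adjusted p = 0.000253), or 1.41-fold. Stepwise, it rose between 3 h and 6 h by 0.33 (adjusted p = 0.00693) and between 6 h and 12 h by a further 0.33 (adjusted p = 0.00884). These 4 calls held in all 28 alternatives.

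Smaller differences of TNFRSF1B were less certain. The change at 12 h against 0 h was 0.24 (adjusted p = 0.0633) and that from 12 h to 24 h was 0.25 (adjusted p = 0.0509), neither past the threshold. Its fall of 0.38 from 1 h to 3 h (adjusted p = 0.0337) was lost without replicate 1 of 1 h (0.108) or 2 (0.202) or replicate 1 of 3 h (0.0533), 2 (0.0739) or 3 (0.0886), and with DESeq2 (0.0909), no filter (0.0945), only the 2 groups (0.17), the replicate block (0.0505) or the close pairs averaged (0.0543). Summed leukocyte and endothelial markers were also lowest at 3 h and highest at 24 h. The 5 leukocyte markers summed to 77 to 87.3 CPM (0 h), 79.2 to 79.4 (1 h), 59.4 to 65.8 (3 h), 74.5 to 75.3 (6 h), 70.5 to 75.5 (12 h) and 94.2 to 99.9 (24 h). The 3 endothelial markers summed to 1.06 to 1.93, 1.14 to 2, 0.789 to 0.964, 0.971 to 1.33, 1.25 to 2.28 and 2.85 to 4.1 CPM at the same times. CD68 (773 to 1678 counts per library) made up nearly all of the leukocyte sum and PECAM1 (11 to 68) most of the endothelial one, while mean CD14 was 1.43 CPM at 0 h and 1.51 at 3 h. All libraries come from 1 cell line, and any part of other cells in the result was not tested. Of the other leukocyte markers, CD3E had 0 counts in 17 of 17 libraries, LST1 at most 4, PTPRC at most 5 and CD14 11 to 32. The endothelial markers CDH5 and VWF had at most 2 and 5.

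TNFRSF9 (4-1BB, CD137, ENSG00000049249, chr1:7915894-7943165, minus strand), best known as a costimulatory receptor of activated T cells, was the least abundant member at 0 h and rose late. It had 16 to 91 counts per library. Levels were 0.996, 1.62 and 2.12 CPM (0 h), 1.84 and 1.47 (1 h), 1.71, 1.32 and 1.65 (3 h), 3.1, 2.19 and 2.81 (6 h), 2.4, 3.41 and 2.61 (12 h), and 5.15, 5.64 and 4.34 (24 h). Libraries of 0, 1 and 3 h overlapped, those of 6 and 12 h lay above them, and those of 24 h lay highest. TNFRSF9 rose by 0.78 on the log2 scale at 6 h (SE 0.239, adjusted p = 0.0191), 0.84 at 12 h (SE 0.235, adjusted p = 0.0233) and 1.67 at 24 h (SE 0.222, adjusted p = 2.55e-05), the last a 3.19-fold difference. It also rose from 3 h to 6 h (0.79, adjusted p = 0.0138) and from 12 h to 24 h (0.83, adjusted p = 0.0127). Its ligand gene TNFSF9 fell by 0.97 at 24 h (SE 0.147, adjusted p = 8.62e-05), from 6.04, 6.48 and 6.35 CPM at 0 h to 2.99, 3.47 and 3.14 CPM.

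The rise of TNFRSF9 at 24 h held in all 28 alternatives, and its other calls did not. At 6 h the call was lost without replicate 1 of 0 h (0.53, adjusted p = 0.116), replicate 1 of 6 h (0.67, 0.0596) or replicate 3 of 6 h (0.74, 0.0653). At 12 h it was lost without replicate 1 of 0 h (0.59, adjusted p = 0.133), replicate 2 of 0 h (0.86, 0.0656) or replicate 2 of 12 h (0.67, 0.147). The step from 3 h to 6 h was lost without replicate 2 of 3 h (0.68, adjusted p = 0.0636), and that from 12 h to 24 h without replicate 1 of 12 h (0.0650) or replicate 2 of 24 h (0.0725).

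TNFRSF11A (RANK, ENSG00000141655, chr18:62325287-62391292, plus strand), the receptor of RANKL known from osteoclasts and from mammary epithelium, changed least clearly. Its libraries measured 7.72, 8.85 and 8.4 CPM (0 h), 8.04 and 7.67 (1 h), 6.08, 7.3 and 7.67 (3 h), 8.78, 8.76 and 8.69 (6 h), 8.98, 10.33 and 9.77 (12 h), and 7.61, 8.49 and 9.88 (24 h). Libraries of 3 h lay below those of 0, 6 and 12 h, and those of 12 h lay above those of 0, 1, 3 and 6 h. Those of 24 h overlapped every other time. Only the step from 3 h to 6 h was called, with a rise of 0.32 on the log2 scale (SE 0.118, adjusted p = 0.0363). That call was lost without replicate 1 of 3 h (0.22, adjusted p = 0.179) or 2 (0.0594) or replicate 1 of 6 h (0.0662), 2 (0.0761) or 3 (0.0775), with DESeq2 (0.0852), no filter (0.0689), only the 2 groups (0.0585) or the close pairs averaged (0.0777), and with trends on length and GC content removed (0.15, 0.290). The F-test over all times gave an adjusted p of 0.0293.

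LTBR (ENSG00000111321, chr12:6375045-6391571, plus strand), the lymphotoxin beta receptor and a textbook activator of the non-canonical NF-kappaB route, was lowest at 6 h. It gave 99.43, 87.02 and 89.43 CPM (0 h), 95.39 and 100.3 (1 h), 102.4, 102.3 and 87.12 (3 h), 82.4, 73.9 and 72.8 (6 h), 93.66, 83.38 and 98.9 (12 h), and 84.25, 76.9 and 80.2 (24 h). Every 6 h library lay below all those of 0, 1, 3 and 12 h and overlapped 24 h. LTBR fell by 0.27 on the log2 scale at 6 h against 0 h (SE 0.0782, adjusted p = 0.0145) and by 0.35 from 3 h to 6 h (SE 0.0786, adjusted p = 0.0015), and between 6 h and 12 h it rose by 0.27 (adjusted p = 0.02). With trends on length and GC content removed, the falls were -0.16 (adjusted p = 0.0436) and -0.21 (0.00616).

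For LTBR the fall at 6 h against 0 h was lost without replicate 1 of 0 h (-0.21, adjusted p = 0.0919) or replicate 2 of 6 h (-0.25, 0.0626) or 3 (-0.23, 0.0763), and with the close pairs averaged (0.0665). The rise to 12 h was lost without replicate 2 of 6 h (0.0809) or 3 (0.0963) or replicate 1 of 12 h (0.0708) or 3 (0.102), and with the close pairs averaged (0.0959). LTBR counts were fractional in 7 of 17 libraries, and the gene overlaps SCNN1A on the other strand by 2686 bases (166 to 321 counts), so reads could be shared where counting did not use strand. Its ligand gene LTB, which encodes lymphotoxin beta, had few counts and rose at 6 h by 1.83 (SE 0.332, adjusted p = 0.000513), from 4 to 11 counts per library at 0 h to 24 to 32 counts.

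CD40 (ENSG00000101017, chr20:46118272-46129863, plus strand), the receptor of CD40 ligand that B cells, dendritic cells and some carcinomas carry, was lowest at 6 h and highest at 12 h. Levels were 36.83, 34.88 and 32.42 CPM (0 h), 33.67 and 36.66 (1 h), 30.85, 35.26 and 30.76 (3 h), 30.65, 29.45 and 28.28 (6 h), 39.42, 36.17 and 38.98 (12 h), and 34.25, 33.77 and 31.56 (24 h). No 6 h library reached the lowest library of another time, and 12 h overlapped 0 h and 1 h. CD40 rose by 0.37 on the log2 scale from 6 h to 12 h (SE 0.0745, adjusted p = 0.00154), which held in all 28 alternatives. The fall at 6 h against 0 h was 0.24 on that scale (log2 change -0.24, SE 0.0753, adjusted p = 0.0225). It was lost without replicate 1 of 0 h (-0.19, adjusted p = 0.112) or 2 (0.0532) or replicate 2 of 6 h (0.0639) or 3 (0.102), with no filter (0.0535) or the close pairs averaged (0.0721), and with trends on length and GC content removed (-0.099, 0.233).

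Ordered by mean level, 5 of the 10 genes were lowest at 3 h (FAS, TNFRSF1A, TNFRSF1B, TNFRSF9, TNFRSF11A), 3 at 6 h (LTBR, CD40, NGFR), TNFRSF21 at 12 h and TNFRSF12A at 24 h. The highest mean fell at 24 h for 4 genes (TNFRSF1A, TNFRSF1B, TNFRSF9, NGFR), at 6 h for FAS and TNFRSF21, at 12 h for TNFRSF11A and CD40, at 3 h for TNFRSF12A and at 1 h for LTBR. The ratio of the highest to the lowest mean ran from 1.27 for TNFRSF21 to 4 for NGFR, with 3.24 for TNFRSF9, 2.42 for TNFRSF12A and 1.88 for TNFRSF1B. With the times so ordered, the highest time lay apart from its neighbour, with no overlap of replicate ranges, for 8 genes, LTBR and CD40 being the exceptions. Lower in the order, neighbours lay apart for TNFRSF1A (3 h below 1 h, and 1 h below 12 h), TNFRSF1B (3 h below 6 h, and 0 h below 12 h), TNFRSF9 (1 h below 6 h), LTBR (24 h below 0 h) and CD40 (6 h below 3 h). All other neighbours in these orders overlapped.

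Across the 17 libraries the members fell into patterns that ran together or apart; these correlations of log2 CPM are descriptions, since all genes share the libraries, their depth and any trend on length or GC content. Pearson's r was 0.80 for TNFRSF1A with TNFRSF1B, 0.80 for TNFRSF1B with NGFR and 0.75 for TNFRSF1B with TNFRSF9. TNFRSF12A ran opposite to TNFRSF1B (-0.90), TNFRSF9 (-0.85) and TNFRSF1A (-0.83), and TNFRSF21 opposite to CD40 (-0.88).

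Among 11329 genes whose average log2 CPM was 2 or more, the most alike pattern for TNFRSF12A was that of NR2C2AP (r = 0.98), then TRIR and DDX39A. For TNFRSF1A it was SRC (0.96), then SLC39A7 and RETREG2, and for TNFRSF1B TGFBR3 (0.95), then ADGRG1 and FAM225A. TNFRSF9 was most like ACO1 (0.94), then CYB5R4 and GPRC5B, and NGFR most like IFIT1 (0.95), then LAPTM5 and NOX5. LTBR followed PCBD1 (0.96), then SNRNP35 and ISOC2, while TNFRSF21 followed TGFB2 (0.91), then INPP4B and ZSWIM4. The best likeness was lower for CD40 with UQCC1 (0.89), FAS with TARDBP (0.89) and TNFRSF11A with WARS (0.87).

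The remaining 15 genes of the receptor family, TRAIL receptors left out, split into 8 that could be tested and 7 with at most 4 counts in any library. Calls against 0 h numbered 0, 1, 1, 1 and 4 at 1, 3, 6, 12 and 24 h, where 0.312%, 17.7%, 30.1%, 12.4% and 35.1% of all genes were called. The call at 3 h was higher and the rest were lower (at 24 h, 17.1% of all genes were lower), and the medians were 0.11, 0.19, -0.37, -0.14 and -0.47, beside the medians of all genes given above. At 1 h, 0 had an unadjusted p below 0.05. The count at 24 h was 1 without replicate 1 of 0 h, 2 without replicate 2 of 24 h and 2 without a composition factor, and those at 6 h and 12 h ran from 0 to 2 with 1 library left out. RELT, a receptor of lymphoid tissues, rose by 0.47 at 3 h (SE 0.0873, adjusted p = 0.00109), and it was lower at 24 h than at 0 h (log2 change -0.29, adjusted p = 0.0156). Between 3 h and 6 h RELT changed by -0.30 (adjusted p = 0.00842). RELT counts were fractional in 7 of 17 libraries. TNFRSF13C, the BAFF receptor of B cells, fell by 1.80 at 24 h (SE 0.361, adjusted p = 0.000932), from 18 to 25 counts per library to 4 to 10. TNFRSF11B, the decoy receptor osteoprotegerin, fell by 0.57 at 24 h (adjusted p = 0.0117), a call lost without replicate 1 of 0 h (-0.40, 0.104). TNFRSF18 (GITR) had a change of -0.95 at 6 h (adjusted p = 0.043), which was lost without any of 8 single libraries (replicates 1 and 2 of 0 h, 1 and 2 of 1 h, 1 of 3 h, 1 and 3 of 6 h, and 3 of 24 h), with adjusted p from 0.05 to 0.185. It was also lost with DESeq2 (0.0911), no filter (0.0592), the close pairs averaged (0.0717), and trends on length and GC content removed without the replicate block (-0.66, 0.131) or with it (-0.67, 0.121).

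The list of ligand genes holds none for TNFRSF21. Those listed were mostly near or below detection, with 5 of 12 tested and the others at no more than 8 counts. Against 0 h, higher calls numbered 0, 3, 2, 3 and 0 at 1, 3, 6, 12 and 24 h, and lower calls 0, 0, 2, 1 and 1. Of all genes, 0.26%, 9.04%, 16.9%, 5.96% and 18% were higher at these times and 0.0521%, 8.71%, 13.2%, 6.48% and 17.1% lower. Medians were 0.12, 0.78, -0.029, 0.22 and 0.056. At 1 h, 2 genes had an unadjusted p below 0.05 and DESeq2 called 1. At 3, 6 and 12 h DESeq2 called 1, 2 and 2, with genes that it gave no adjusted p left uncounted. Without replicate 2 of 0 h, 2 were called at 12 h, and without replicate 1 of 0 h, 2 at 24 h. TNF itself had 0 counts in all 3 libraries at 0 h and 8 to 9 at 3 h, at least 3.46-fold higher than a floor of 3 counts per library. TNF had 5 to 8 counts at 6 h and 0 to 2 at 24 h. It passed the filter on low counts only through libraries of 3 h, where it was highest, so its test is not read here. TNF is nevertheless among the tested ligand genes, the higher calls and the medians given above. Those counts and medians are therefore not read as a result about the ligands. BDNF, a neurotrophin whose precursor binds NGFR, rose by 0.78 at 3 h (SE 0.063, adjusted p = 5.59e-08). Its counts were fractional in 17 of 17 libraries, and it overlaps its antisense gene BDNF-AS, so reads could be shared where counting did not use strand. TNFSF12, the ligand of TNFRSF12A, fell by 0.51 at 6 h (adjusted p = 0.0019) and by 0.32 with trends on length and GC content removed (log2 change -0.32, adjusted p = 0.00769). TNFSF12 counts were fractional in 16 of 17 libraries.

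Against 0 h, higher calls outnumbered lower ones at 3, 6, 12 and 24 h among the receptor-proximal adaptors and kinases, while from 6 h to 12 h lower calls outnumbered higher ones. Of 19 listed, 18 were tested, and higher calls against 0 h numbered 0, 8, 12, 4 and 8 at 1, 3, 6, 12 and 24 h, where 0.26%, 9.04%, 16.9%, 5.96% and 18% of all genes were higher. Lower calls numbered 0, 2, 0, 0 and 0, where 0.0521%, 8.71%, 13.2%, 6.48% and 17.1% of all genes were lower. Medians were -0.013, 0.066, 0.27, 0.13 and 0.19. From 6 h to 12 h, 2 were higher and 9 lower (median -0.27), where 8.7% of all genes were higher and 11.9% lower. At 1 h, 5 genes had an unadjusted p below 0.05 and DESeq2 called 0. BIRC3 (cIAP2), a ubiquitin ligase and well-known NF-kappaB target, rose by 2.22 at 3 h (SE 0.0953, adjusted p = 1.51e-11), TRAF1 by 2.15 at 6 h (SE 0.0752, adjusted p = 2.09e-13) and BIRC2 (cIAP1) by 1.04 at 6 h (SE 0.0842, adjusted p = 8.97e-08). At 3 h the adaptor FADD fell by 0.39 (adjusted p = 0.003), and its counts were fractional in 17 of 17 libraries. MAP3K5 fell by 0.40 at 3 h (adjusted p = 0.0282), a call lost without replicate 2 of 0 h (0.0789) or 3 (0.0743) or replicate 2 of 3 h (-0.32, 0.135). The count of 12 at 6 h became 8 to 13 with 1 library left out and 7 with the close pairs averaged.

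**Figure D4:**
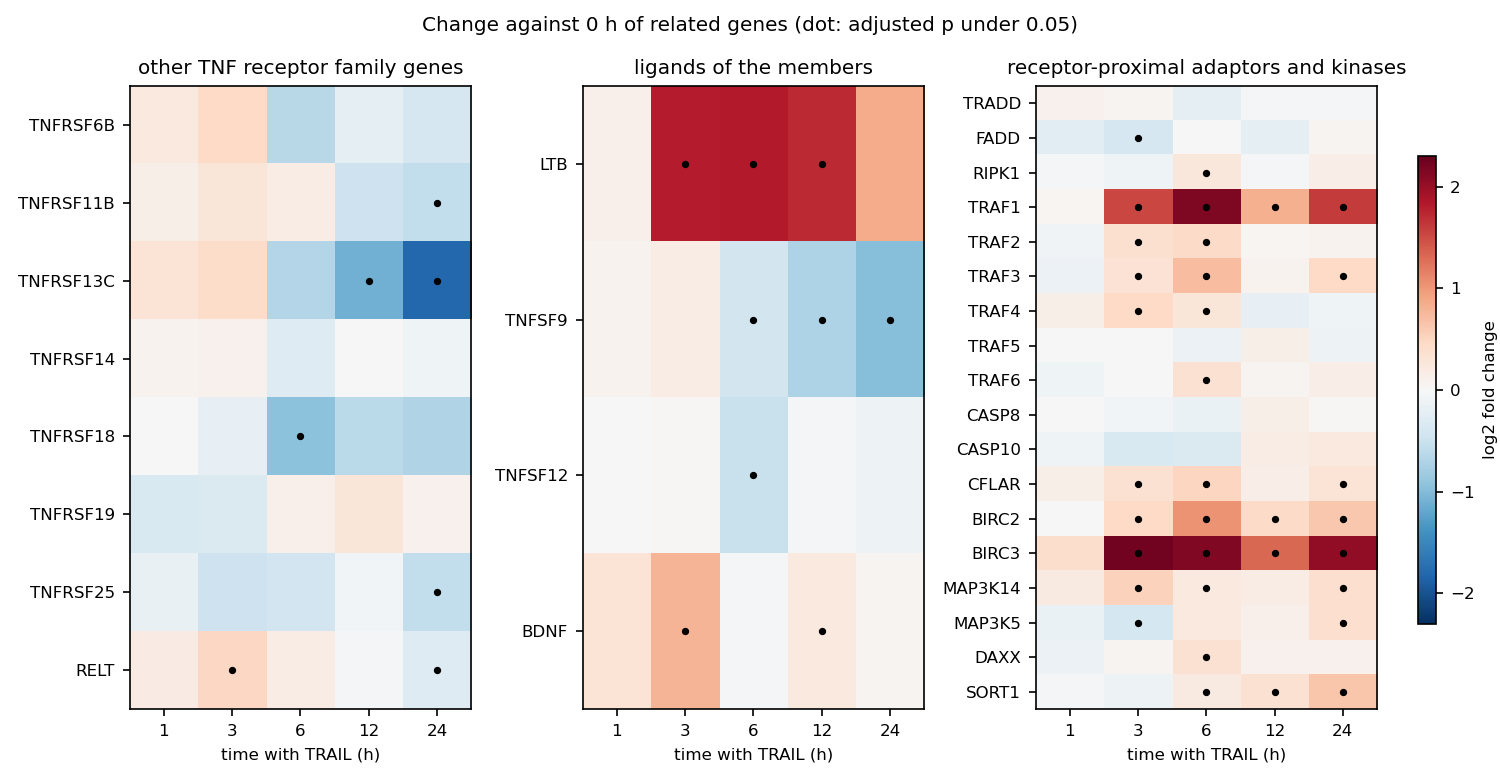
Log2 fold change against 0 h, by colour, of the tested genes of 3 lists at 1, 3, 6, 12 and 24 h with TRAIL. The lists are other TNF receptor family genes, ligands of the receptors except TNFRSF21, and receptor-proximal adaptors and kinases. Dots mark an adjusted p below 0.05, and TNF is not drawn because it had 0 counts at 0 h. BIRC3 and TRAF1 have the deepest red in the adaptor panel, and TNFRSF13C has the deepest blue among the receptors at 24 h.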

How the data were processed

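The authors deposited 1 table of RSEM expected counts (estimated fragments per gene, per the file name), for 17 stranded, poly(A)-selected paired-end libraries, per the labels' protocols. The submitters' processing notes name hg38, cutadapt 1.18 and STAR 2.7.0f; the RSEM version, annotation and strand setting are not given in the sources used here. Fractional values made up 10.8% of the deposited expected counts, which were rounded here.

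Genes were filtered with filterByExpr, scaled by TMM (factors 0.939 to 1.06) and tested with edgeR 4.0.16 (R 4.3.3): 1 quasi-likelihood fit with robust estimation over all 17 libraries, 1 mean per time, p-values adjusted over 15365 genes. Groups come from the sample titles. Standard errors derive from the coefficient and F. Levels are CPM on the TMM-scaled total; log2 CPM used a prior count of 2. Totals of 13731497 to 19234939 counts per library set the precision, and genes under 100 counts are the least precise. Positions, lengths and GC content come from GENCODE 29 (GRCh38), which matched 58597 of 58870 entries; 99.8% of tested genes had both. Promoter windows are RefSeq's. The fitting code was also run on simulated counts with the same spread set for every gene. The spread in these libraries can differ by gene, so that run does not bear on the calls.

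The members, gene lists and markers were chosen with earlier results of these data known. All members are described. Some listed genes are not reported here. Of each list, the genes with the largest called changes against 0 h are named, up to 3 higher and 3 lower. Alternatives were RLE scaling, library size only, no filter, DESeq2 1.42.0, a minimum mean count of 10, 2-group fits, a replicate block, length and GC trends removed (splines with 4 degrees of freedom each, alone and with the block), close pairs averaged, unrounded counts and each library left out. Deviations of same-numbered libraries had a median correlation of 0.0167, against -0.037 for other numbers. Single pairs ran from -0.438 to 0.51, with 19 of 40 over 0.1. The labels do not say what a replicate number shares, so numbers were not used as pairs.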

Additional observations from a re-analysis of the deposited data

How the results depend on the processing

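Each of 90 log2 changes (10 genes, 9 comparisons) was recomputed under 28 alternatives, 17 of which left out 1 library. Of the 34 called values, 17 were called under every alternative, among them all 3 at 3 h against 0 h and those of TNFRSF1B, TNFRSF9, TNFRSF12A and NGFR at 24 h, and 0 changed sign. Another 16 were called only under an alternative and 40 under none. The uncalled change of TNFRSF12A at 6 h against 0 h was -0.19 and reversed to 0.024 with length and GC trends removed, both without and with the replicate block (0.0239 and 0.0236).

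With the close pairs averaged, 2 genes were called at 6 h against 0 h instead of 5, 2 from 12 h to 24 h instead of 5, and 1 from 1 h to 3 h instead of 2. For 1 h to 3 h, a fit of only these groups called 0 genes, and length and GC trends removed called 4. For 6 h to 12 h, length and GC trends removed called 8 instead of 5. With the replicate block, 1 gene was called from 1 h to 3 h instead of 2, and with the replicate block and both trends removed, 4 from 1 h to 3 h and 8 from 6 h to 12 h. Counts in the other comparisons moved by less than 1.5 times under the block.

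With 1 library left out, the counts ran from 0 to 0 (1 h), 3 to 3 (3 h), 1 to 6 (6 h), 0 to 2 (12 h) and 4 to 6 (24 h) against 0 h. They ran from 0 to 3 for 1 h to 3 h, 5 to 8 for 3 h to 6 h, 4 to 6 for 6 h to 12 h, 1 to 6 for 12 h to 24 h, and 9 to 10 over all times. Without a 1 h library, the lone one was assumed to vary like the other groups. TNFRSF9 and NGFR, at 16 to 91 and 14 to 80 counts per library, had the largest standard errors among the members.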
